A study of Danio rerio with 8 samples.

Results

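The table of small RNA counts from zebrafish larvae labels 672 of its 32520 rows with the biotype antisense, and 16 of these had a summed count of at least 10 over the 8 libraries. These 16 rows were chosen by that biotype and that sum, both read from the table itself. The libraries came from pools of 50 wild-type (AB strain) larvae at 7 dpf. The S+ group held 4 libraries, from crossings of 12-month-old males chronically stressed for 21 days with undisturbed females, and the S- group held 4 libraries, from crossings of undisturbed control males of the same age with undisturbed females. Each library stood for the progeny of a separate crossing, and all larvae were unexposed to the stressors themselves. The estimated counts totalled 3492945 to 4943297 in the S+ libraries and 3527034 to 4301348 in the S- libraries, and miRNA rows held 96.2% to 97.9% of them. Of 18 miRNA rows listed as tissue markers, 17 are in the table and had counts in every library, among them the liver marker dre-mir-122 and the blood marker dre-mir-451.

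An antisense transcript is read from the strand opposite to another gene, which it overlaps, and many such transcripts are long noncoding RNAs. Some act on the gene they overlap, and others serve as precursors of small RNAs. A small RNA library captures a long transcript only as short fragments, while a mature miRNA cut from such a transcript is captured whole. In mouse, miR-199 and miR-214 are both cut from Dnm3os, an RNA that runs opposite to the dynamin gene Dnm3 and is known for its part in skeletal and connective tissue development. In zebrafish, miR-214 is known to tune Hedgehog signalling during somite patterning.

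The antisense label covered 2 kinds of row. The rows mir199-3a (ENSDARG00000082451) and mir214a (ENSDARG00000083042) bear the names of miRNA genes, and RefSeq lists both as miRNA genes inside the span of dnm3a (assembly GRCz12tu, used for names and neighbours only). The remaining 14 bear clone names such as CR936482.1. Mir199-3a held 178688 counts and mir214a held 112865, which were 61.1% and 38.6% of the 292234 counts of the 16 rows. Nearly all counts under the antisense label thus stood in rows of miRNA genes, and the 14 clone-named rows held 681 counts together. CR936482.1 came next with 261 counts, followed by BX119915.2 with 118 and BX530407.4 with 58. With these rows the 3 largest held 99.86% of the counts, the 5 largest 99.92% and the 10 largest 99.97%.

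**Figure D1:**
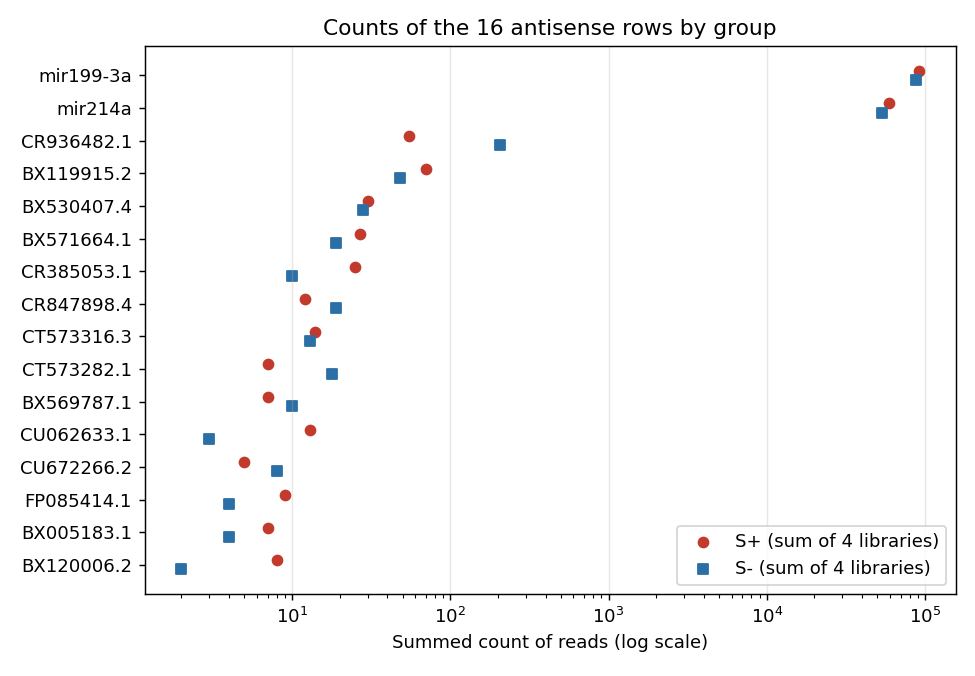
Summed counts of reads (log scale) of each of the 16 antisense rows, with circles for the sum over the 4 S+ libraries and squares for the sum over the 4 S- libraries. Mir199-3a and mir214a lie more than 2 orders of magnitude above CR936482.1, the next row with 55 counts in S+ and 206 in S-.

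The 16 rows took 0.895% ± 0.0468 of all counts in the S+ libraries and 0.924% ± 0.0482 in the S- libraries (SD, n = 4 each), and the groups overlapped. Of the counts outside rows of the biotype miRNA they were 36.6% ± 3.09 for S+ and 33.0% ± 7.15 for S- (SD, n = 4 each). Within the 16 rows, mir199-3a and mir214a together made up 99.75% to 99.87% of the counts in S+ libraries and 99.67% to 99.75% in S- libraries. This weight on 2 rows was seen in every library of both groups.

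Of the 672 antisense rows, 513 had no count in any library, 143 had 1 to 9 counts and 16 had at least 10. Some count was present for 23.7% of antisense rows, against 34.7% of 1493 lincRNA rows and 64.0% of 25432 protein-coding rows. At least 10 counts were reached by 2.38% of antisense rows, 4.15% of lincRNA rows and 12.2% of protein-coding rows. For 1045 rows of the biotype processed_transcript these shares were 31.2% and 2.78%, and for 57 rows of the biotype sense_intronic 33.3% and 1.75%. Apart from mir199-3a and mir214a, the antisense class held 1022 counts in all. The 2 largest rows held 99.7% of all antisense counts, 94.6% of lincRNA counts and 21.3% of protein-coding counts. For processed_transcript rows this share was 86.5% and for sense_intronic rows 32.7%. The antisense share is that of mir199-3a and mir214a. These shares describe the pooled libraries and were not tested. Just inside the limit of 10 counts stood BX120006.2 with 10 and BX005183.1 with 11, and just outside it stood BX324164.3, BX901962.2 and BX901962.3 with 9 each. The last pair had the same count in each of the 8 libraries.

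Whether the progeny of stressed males differed from those of control males was tested with limma-voom on counts scaled with TMM factors. Levels are given as CPM, the counts of the row per 1000000 TMM-scaled counts of the library, summed over the rows that pass the filter below. A filter on low counts (filterByExpr of edgeR, minimum count 10) left 651 rows of the whole table. To be called, a row needed an adjusted p (Benjamini-Hochberg) under 0.05 together with a log2 fold change beyond 0.58 in either direction. Of the 16 antisense rows, 4 passed the filter and 0 were called by limma, beside 0.307% of all tested rows in either direction and 0.154% lower in S+. DESeq2 called 1 of the 4, CR936482.1, beside 4.61% of all rows in its fit. At an unadjusted p below 0.05 from limma there was 1 of the 4, again CR936482.1, beside 12.4% of all tested rows in either direction and 5.22% lower in S+. Among the 4 rows 2 had a positive and 2 a negative log2 fold change, with a median of -0.026, and the median over all 651 rows was -0.023. The filter keeps the rows with most counts, so these 4 do not stand for the 16. It asks for about 10 counts, scaled to depth, in at least 4 libraries. CR936482.1 had 6 counts in S+ replicate 4, so it passed only with the help of the S- libraries, where it was higher.

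Mir199-3a encodes a miRNA known from mesenchymal tissues of vertebrates. It had 5179, 5426, 5567 and 5421 CPM in S+ replicates 1 to 4, against 5896, 5545, 4905 and 6622 CPM in S- replicates 1 to 4. The S+ libraries lay close together, inside the range of the S- libraries. It averaged 5398 ± 161 CPM across S+ and 5742 ± 716 CPM across S- libraries (SD, n = 4 each). The log2 fold change was -0.080 with a 95% interval from -0.35 to 0.19 (adjusted p = 0.782 from limma, Benjamini-Hochberg).

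Besides mir199-3a, 2 rows with a miR-199 name were examined, both with the biotype miRNA. Some miRNA rows bear only an Ensembl identifier, so these rows may not cover every miR-199 copy. Dre-mir-199-3 ranged from 9005 to 12458 CPM across S+ and from 10511 to 12897 CPM across S- libraries. Its log2 fold change was -0.17 (adjusted p = 0.609 from limma). The other row, dre-mir-199-2, had 4 counts in 1 S+ library and 0 elsewhere. RSEM shares a read with several matching genes out between them, which leaves the split of miR-199 reads between copies uncertain. Mir199-3a took 34.5% ± 3.11 of the counts of the 3 rows for S+ and 33.1% ± 2.62 for S- (SD, n = 4 each). The 3 rows summed to 15737 ± 1598 CPM across S+ and 17327 ± 1473 CPM across S- libraries (SD, n = 4 each), and the groups overlapped. Taken alone or summed, these miR-199 rows did not separate the groups.

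Mir214a varied more among the S+ libraries. It had 3455, 4520, 2428 and 4089 CPM in S+ replicates 1 to 4, against 3097, 3305, 3996 and 3490 CPM in S- replicates 1 to 4. Both the highest and the lowest value came from S+, in replicates 2 and 3. It averaged 3623 ± 909 CPM across S+ and 3472 ± 384 CPM across S- libraries (SD, n = 4 each). The log2 fold change was 0.028 with a 95% interval from -0.40 to 0.45 (adjusted p = 0.960 from limma), and its sign turned under 8 of 22 other analyses, among them those without S+ replicate 2, S+ replicate 4, S- replicate 1 or S- replicate 2 (-0.10 to 0.20 over all libraries left out in turn).

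Although both rows lie in dnm3a, their counts did not keep a fixed ratio. Mir199-3a had 1.50, 1.20, 2.29 and 1.33 times the counts of mir214a in S+ replicates 1 to 4, against 1.90, 1.68, 1.23 and 1.90 times in S- replicates 1 to 4. The ratio was highest in S+ replicate 3 and lowest in S+ replicate 2, and the groups overlapped. As the split of miR-199 reads between copies is uncertain, this ratio is uncertain too. The overlapping gene dnm3a, which codes for a dynamin, had 2 counts in S- replicate 3 and 0 in every other library.

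**Figure D2:**
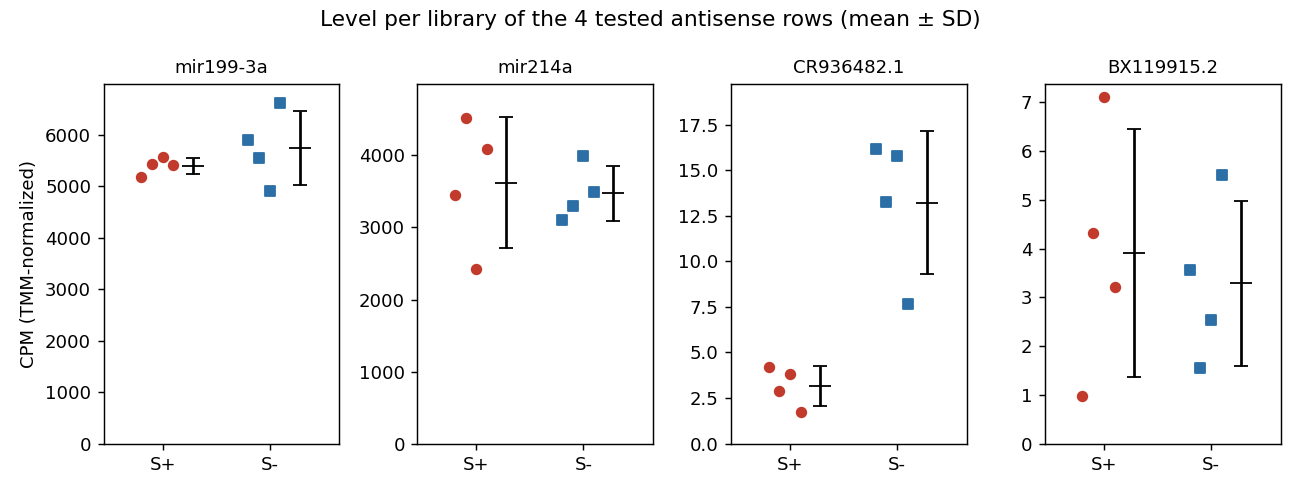
CPM (TMM-normalized) per library of the 4 antisense rows that passed the filter, with circles for S+, squares for S-, and the mean ± SD beside each group (n = 4 each). The S+ and S- libraries overlap for mir199-3a, mir214a and BX119915.2, while for CR936482.1 the S+ libraries lie at 1.75 to 4.20 CPM, all below the S- libraries at 7.65 to 16.1 CPM.

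CR936482.1 (ENSDARG00000097731, named si:dkey-166f24.2 in the table of gene names) lay lower in S+ larvae. No function is annotated for it in the sources used here. It had 17, 12, 20 and 6 counts in S+ replicates 1 to 4, against 59, 60, 62 and 25 counts in S- replicates 1 to 4. As levels these were 4.20, 2.88, 3.85 and 1.75 CPM in S+, against 16.1, 13.3, 15.8 and 7.65 CPM in S-. The groups did not overlap. The lowest S- library was replicate 4, which Dixon's test, used further below, did not flag. CR936482.1 was the 1 of the 4 tested antisense rows without overlap. As it passed the filter only with the help of the S- libraries, its place among those 4 is no support for the difference. Groups without overlap were found for 7.68% of all tested rows, and for 2.92% with S+ lower. CR936482.1 averaged 3.17 ± 1.10 CPM across S+ and 13.2 ± 3.92 CPM across S- libraries (SD, n = 4 each), and was 3.98-fold lower in S+ by the fit.

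The log2 fold change of CR936482.1 was -1.99 (standard error 0.394, 95% interval from -2.87 to -1.11). With an adjusted p = 0.0829 from limma (unadjusted 0.000509), the row missed the threshold. Its p was the fourth smallest of the 651 rows. The direction was the same in all 22 other analyses, with log2 fold changes from -2.21 to -1.79. This is no added support. The unadjusted threshold and the fit on noncoding genes only left the estimate at -1.99 by construction. As the groups did not overlap, leaving out 1 library could hardly turn the sign. Of the 13 other analyses that kept all 8 libraries and the adjusted threshold, 6 called the row and 7, like the main fit, did not. Their adjusted p values ran from 0.000193 (DESeq2) to 0.123 (limma with library size only). Beside DESeq2 these calls came from limma on every gene with a count (0.431% of all rows called), on rows outside the biotype miRNA (0.546%) and with a replicate block (1.38%). They also came from edgeR's quasi-likelihood test with that block (1.08%) and on rows with a summed count of at least 10 (0.859%). Same-numbered libraries come from different crossings, so the block does not match a pairing in the design. The block with edgeR's test was chosen after seeing the data. Without S- replicate 4 it was called by limma (adjusted p = 0.0467, with 0.279% of all rows called), and without any 1 of the other 7 libraries it was not. CR936482.1 was part of the choice of rows with results of these libraries known, so its p values are not independent evidence.

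**Figure D3:**
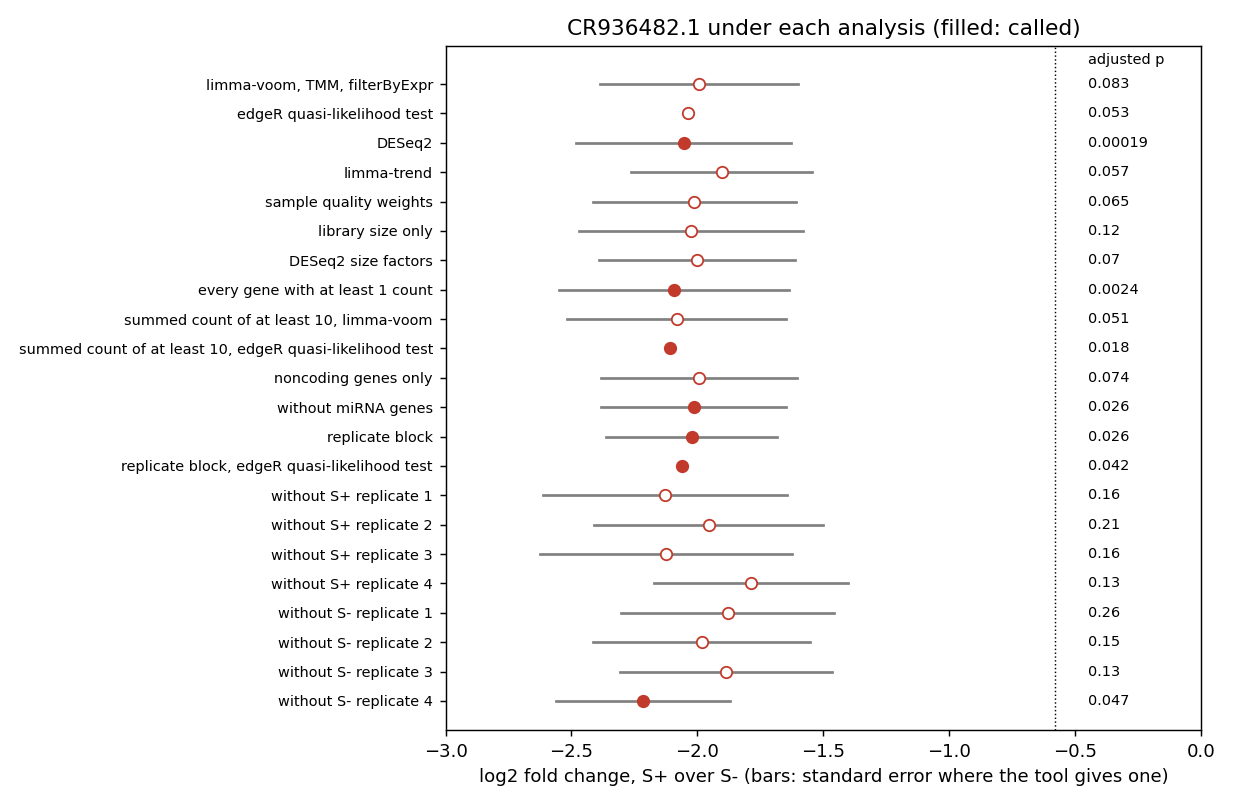
Log2 fold change of CR936482.1, S+ over S-, under each analysis, with the standard error as a bar where the tool gives one, the adjusted p at the right and the fold change limit as a dotted line. All points lie between -2.21 and -1.79, and the filled ones, where the row was called, are mixed with open ones.

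The S- libraries differed in how much RNA other than miRNA they held. Without mir199-3a and mir214a, counts outside miRNA rows came to 14530 to 16550 CPM in S+ and 14649 to 27242 CPM in S-, highest in S- replicates 2 and 3. As CPM of those counts alone, CR936482.1 had 271, 198, 239 and 106 in S+ replicates 1 to 4, against 1022, 487, 765 and 522 in S- replicates 1 to 4. On this scale too every S+ library lay below every S- library. The share of all rows without overlap was not computed on this scale. These values come from the same counts of the same row, so they are no added support. Whether the amount of other RNA bears on the difference was not tested. With rows of the biotype miRNA left out before normalization, limma called CR936482.1 (log2 fold change -2.01, adjusted p = 0.0262). In that fit 0.546% of all rows were called. That fit kept mir199-3a and mir214a, whose biotype is antisense.

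Over the 8 libraries, the row most like CR936482.1 by Pearson correlation of log2 CPM was crygm2d5, a lens crystallin gene (r = 0.948, the highest of 650 rows). Crygm2d5 had 51, 40, 62 and 20 counts in S+ replicates 1 to 4, against 74, 83, 72 and 53 counts in S- replicates 1 to 4. It was uncalled, with a log2 fold change of -0.90 (adjusted p = 0.195 from limma), and belongs to a large family of near-identical genes among which reads can be divided. In that family 9 of 16 tested crygm2d rows had a positive and 7 a negative log2 fold change (-0.90 to 1.76), crygm2d5 being the 1 row with an unadjusted limma p below 0.05 and none being called. Crygm2d3 lay higher in S+ without overlap (log2 fold change 0.68). The pseudogene FO704772.2 (r = 0.894) and dre-mir-194b (r = 0.831) came next. In all 3 rows the groups did not overlap, with S+ lower, as in CR936482.1, so these likenesses share that difference and carry no test. For mir199-3a the most alike row was dre-mir-1388 (r = 0.891) and for mir214a it was dre-mir-726 (r = 0.862).

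BX119915.2 (si:ch211-10j20.7), also with no function in the sources used here, had 4, 18, 37 and 11 counts in S+ replicates 1 to 4, against 13, 7, 10 and 18 counts in S- replicates 1 to 4. The highest and the lowest library were both S+. It averaged 3.91 ± 2.55 CPM across S+ and 3.29 ± 1.69 CPM across S- libraries (SD, n = 4 each), and the log2 fold change was 0.24 with a 95% interval from -1.17 to 1.66 (adjusted p = 0.883 from limma). Without S+ replicate 3 the log2 fold change was -0.21 and without S- replicate 2 it was -0.093, so its direction rested on single libraries.

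The other 12 rows had too few counts for the filter, and each had overlapping groups. BX530407.4 had 3, 13, 7 and 7 counts in S+ replicates 1 to 4, against 11, 4, 8 and 5 counts in S- replicates 1 to 4. BX571664.1 had 7, 6, 11 and 3 counts in S+, against 6, 4, 4 and 5 counts in S-. These and CR847898.4, with 12 counts in S+ and 19 in S-, were the rows of the 12 found in all 8 libraries. CR385053.1 had 3, 12, 10 and 0 counts in S+ replicates 1 to 4, against 0, 0, 2 and 8 counts in S- replicates 1 to 4. CT573282.1 had 2, 5, 0 and 0 counts in S+, against 4, 5, 2 and 7 counts in S-. Both were missing from S+ replicate 4. CT573316.3 was found in 7 libraries, with 14 counts in S+ and 13 in S-. BX569787.1 had 7 counts in S+ and 10 in S-, CU672266.2 had 5 and 8, and FP085414.1 had 9 and 4. CU062633.1 had 0, 9, 4 and 0 counts in S+, against 0, 3, 0 and 0 counts in S-, so 1 library held 56.3% of its counts. This was the highest such share among the 16 rows. BX005183.1 had 7 counts in S+ and 4 in S-, and BX120006.2 had 8 and 2. None of the 12 is given a function in the sources used here. A count of 0 in a library allows up to 3 counts, or 0.607 to 0.859 CPM of a library's total, so an absence of these rows from single libraries was not detectable at this depth.

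When all 3841 rows of the table with a summed count of at least 10 were tested with edgeR's quasi-likelihood test, all 16 rows received a value. Of these, 7 had a positive and 9 a negative log2 fold change, with a median of -0.03, against 0.04 over all 3841 rows. CR936482.1 was called (log2 fold change -2.11, adjusted p = 0.0180 from edgeR) and none of the other 15 had an unadjusted p below 0.05. In that fit 0.859% of all rows were called, 8.25% had an unadjusted p below 0.05 and 4.35% had groups without overlap, against 1 of the 16 antisense rows each time. The next largest differences belonged to rows of few counts, such as CU062633.1 with 13 counts in S+ and 3 in S- (log2 fold change 1.81, adjusted p = 0.817 from edgeR) and CT573282.1 with 7 counts in S+ and 18 in S- (log2 fold change -1.50, adjusted p = 0.760 from edgeR).

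The 14 rows without a miRNA name summed to 289 counts in S+ and 392 counts in S-. CR936482.1 was 34.7%, 12.9%, 18.9% and 14.6% of them in S+ replicates 1 to 4, against 54.1%, 60.6%, 62.6% and 29.4% in S- replicates 1 to 4. S- replicate 4 lay below S+ replicate 1, so the groups overlapped in this share. Without CR936482.1 the other 13 rows summed to 13.5 ± 5.38 CPM across S+ and 12.5 ± 4.48 CPM across S- libraries (SD, n = 4 each), with 6 to 12 of the 13 found per library in S+ and 8 to 10 in S-. In counts these 13 rows came to 234 in S+ and 186 in S-, so the lower sum of the 14 rows in S+ lay with CR936482.1.

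**Figure D4:**
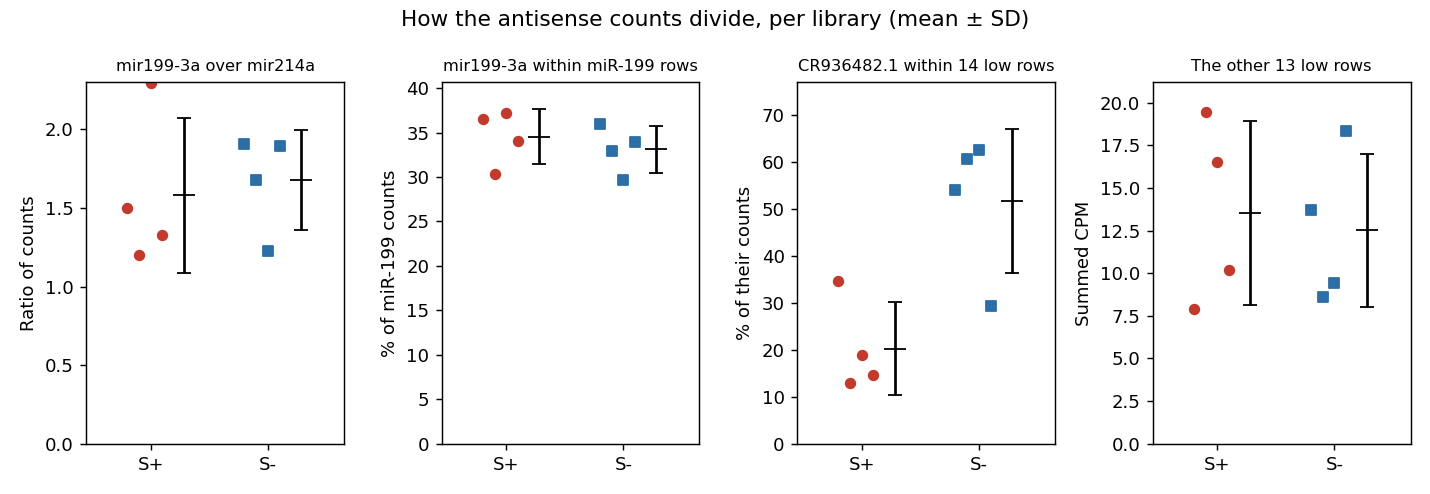
From left to right, the ratio of mir199-3a to mir214a counts, the percent of miR-199 counts taken by mir199-3a, the percent of the 14 low rows' counts taken by CR936482.1, and the summed CPM of the other 13 low rows, per library with circles for S+, squares for S- and the mean ± SD beside each group (n = 4 each). The miR-199 counts are those of the miR-199 rows named in the text. The groups overlap in all 4 panels, and CR936482.1 makes up 12.9% to 34.7% of the 14 rows in S+ against 29.4% to 62.6% in S-.

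RSEM with default parameters does not use the strand of a read. Where an antisense row and the gene it overlaps have annotated sequence in common, their reads thus cannot be told apart in these counts. In pools of whole larvae, fewer cells that make a transcript and less of it per cell cannot be told apart either.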

How the data were processed

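Small RNA libraries of 8 pools of larvae were analysed, 4 S+ and 4 S-, grouped by the sample titles. The authors trimmed reads with Trim Galore 0.6.6, mapped them to GRCz11 with STAR 2.7.8a and deposited expected counts per Ensembl gene from RSEM 1.3.0, as whole numbers and not normalized. The adaptors carried unique molecular identifiers, but no deduplication is described, so counts are taken as reads. SDs reflect the spread between the 4 pools of a group. Standard errors and intervals come from the fits, which pool the spread within both groups and moderate it over the rows fitted. The limit set by a count of 0 covers counting error only. Rounding changed 0 values.

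The whole table was fitted in R 4.3.3 with limma 3.58.1 (voom, the test of the study's methods) and edgeR 4.0.16 (TMM, filterByExpr with a minimum count of 10). The antisense rows are reported, with the rows of other biotypes named in the text. CPM use TMM factors and log2 CPM a prior count of 2. Intervals are 95% intervals of the limma fit. The fit was tested on simulated counts. Alternatives included edgeR's quasi-likelihood test, DESeq2 1.42.0, other normalizations, filters and gene sets, a replicate block and each library left out. Named rows were the 10 with most counts, those tested, those beside the limit of 10 counts, and the 3 rows most alike to each of the 3 largest. BX569787.1, CU062633.1, CU672266.2 and FP085414.1, the other miR-199 rows, dnm3a and crygm2d3 fall outside this rule and were named after their values were seen. The tissue markers came from a list of their own. The members and lists were chosen with earlier results of these data known. Gene names matched 15 of the 16 rows by Ensembl identifier, and RefSeq symbols matched 2.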

Additional observations from a re-analysis of the deposited data

Results flagged for a closer look

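CR847898.4 had 2.04 CPM (7 counts) in S+ replicate 4, and the rest of the S+ group had 0.192 to 0.494 CPM (1 or 2 counts), a gap of 0.837 of the group's range. The summed miR-199 rows had 19519 CPM in S- replicate 4, and the rest of the S- group had 16408 to 16850 CPM, a gap of 0.858 of the range. Both gaps exceed the 95% limit of Dixon's test for 4 samples. Among 57 groups of 4 libraries examined 2 were this far apart, and chance gives about 5%.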

How the results depend on the processing

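No antisense row was called by limma with TMM factors and the filter, beside 0.307% of all tested rows. In 6 of the 13 other analyses with all libraries and the adjusted threshold 1 row, CR936482.1 each time, was called. These were DESeq2 (log2 fold change -2.05, adjusted p = 0.000193, 4.61% of all rows called) and limma on every gene with at least 1 count (-2.09, 0.00240, 0.431%). That limma fit left out only rows without a count, and its standard error was larger than in the main fit (0.457 against 0.394). Its smaller p thus did not come from a tighter estimate. Another call came from edgeR's quasi-likelihood test on rows with a summed count of at least 10 (-2.11, 0.0180, 0.859%). Further calls came from limma without rows of the biotype miRNA (-2.01, 0.0262, 0.546%) and limma with the replicate block (-2.02, 0.0259, 1.38%). The last was the block with edgeR's test, chosen after seeing the data (-2.06, 0.0415, 1.08%). At an unadjusted p below 0.05 the main limma fit also held CR936482.1 (-1.99), beside 12.4% of all tested rows. With each library left out, 0 to 1 antisense rows were called, beside 0 to 3 of all 671 to 720 rows tested, and the log2 fold change of CR936482.1 ran from -2.21 to -1.79. Same-numbered libraries come from different crossings, and the deviations of replicates 1 to 4 correlated with 0.156, -0.159, 0.248 and 0.029, so the numbers were not taken as pairs.

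Mir214a turned negative with every gene of at least 1 count (-0.056) and a summed count of at least 10 (-0.050 by limma, -0.0088 by edgeR). It also did so without rows of the biotype miRNA (-0.028), and with single libraries left out (range -0.10 to 0.20). BX119915.2 turned negative with sample quality weights (-0.10) and ran from -0.21 to 0.75 with single libraries left out. Neither was called in any of these. Mir199-3a kept its direction in all 22.

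The share of antisense rows was 36.6% in S+ and 33.0% in S- with counts outside miRNA rows as the denominator, and 0.00134% and 0.00123% without the 3 largest rows. With other limits on the summed count, the 3 largest rows held 99.74% (at least 1), 99.94% (50) and 99.96% (100), the 5 largest 99.80% (1), 99.87% (5), 99.94% (20) and 100% (50), and the 10 largest 99.86% (1), 99.93% (5) and 100% (20). These shifts follow by construction from the rows counted. The 10 largest rows could not be given at limits of 50 and 100, nor the 5 largest at 100, with too few rows left. Rows with under 10 counts in a library limit what the 12 untested rows can show.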
